A study of Mus musculus with 6 samples.

Results

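Myelin is the lipid-rich membrane that oligodendrocytes wrap around axons in the brain. Its compact layers are held together by basic and transmembrane proteins, and its inner, non-compact parts carry enzymes, adhesion molecules and tight junction strands. The genes for these proteins are switched on together when an oligodendrocyte precursor matures, under SOX10, OLIG2 and the myelin regulatory factor MYRF, and their mRNAs are among the most abundant of that cell type. Neurons such as cortical pyramidal cells do not form myelin.

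Described here are 9 myelin genes, Mbp, Mag, Mog, Mobp, Cnp, Mal, Bcas1, Ermn and Cldn11, taken by name. They are read by 26 of the 34945 probe sets that carry a single gene symbol on the array, which together stand for the genes of the whole series. A probe set is a group of short probes that reads 1 transcript or several related ones. Of the 26, 22 passed the minimum used for testing, a mean of 50 or more in at least 1 treatment group, and all 22 also passed when the replicate 3 arrays were left out of those means. The 4 that did not pass were 2 of the 5 for Mobp, with means of 41.9 and 7.40 in fluoxetine-treated mice, and 2 of the 3 for Bcas1, with 48.7 and 37.4. Each gene kept at least 1 tested probe set. Unless another is named, a gene is described by its brightest.

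All 6 arrays measured ribosome-bound RNA from the cortex of mice of line ES691/p11 KO, which combines an S100a10 bacTRAP transgene with constitutive loss of p11, the protein made from S100a10. In TRAP (translating ribosome affinity purification), a tagged ribosomal protein is made under the control of a chosen gene, here S100a10, so that ribosomes of the cells that use that gene can be pulled out of the tissue. The submitters state that this transgene labels some non-neuronal cells too. The 3 FLX arrays came from mice that drank fluoxetine at 0.167 mg/ml in 1% saccharine for 15 to 18 days, and the 3 VEH arrays from mice that drank 1% saccharine alone. Both groups had been backcrossed from FVB to C57BL/6 for 3 to 5 generations. The labels number the biological replicates 1 to 3 in each group, and do not give the ages of the mice, how many were pooled or what a replicate number stands for. No wild-type, untagged or whole-cortex array was analysed here, so the values cannot say how far a transcript was enriched by the purification.

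The arrays had similar medians over all probe sets (38.5 to 41.9, normalized intensity on a linear scale), but both replicate 3 arrays were unlike the rest. Over the tested probe sets they correlated at r = 0.867 to 0.916 with the other arrays and at 0.973 with each other, against 0.987 to 0.995 among replicates 1 and 2. Neuron markers (9 of 9) and layer 5 pyramidal markers (5 of 6) were tested in all arrays, and their summed intensities lay between 104539 and 135769 and between 42892 and 53994. The S100a10 probe set that passed the minimum had intensities of 2037 to 3111 in replicates 1 and 2 of both groups. In replicate 3 it read 349 in FLX and 643 in VEH. It is of the x_at type, which can match other transcripts. In the order of replicates 1 to 3, the brighter one under the minimum read 44.5, 44.1 and 41.9 in FLX. In VEH it read 49.4, 42.8 and 34.0. The dimmer one read 8.22, 7.35 and 8.01 in FLX and 8.03, 7.65 and 4.98 in VEH. Whether the fall in replicate 3 was one of S100a10 message was not tested. The log2 difference between 3′ and 5′ control probe sets, a measure of RNA integrity, was 1.83 for Gapdh in both replicate 3 arrays against 1.99 to 2.32 in the other 4. For Actb it was 2.32 in FLX and 2.56 in VEH replicate 3, against 2.18 to 2.34 in the other 4. In bulk RNA of this kind, more cells of a type and more RNA per cell cannot be told apart.

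By size of the mean log2 difference, every myelin gene but Mal differed more between replicate 3 and replicates 1 and 2 than between treatments. For Mal the values were 0.24 and -0.25. Replicate 3 is compared as a description only, because 1 array per treatment stands on one side and the split was known from earlier results. In both treatments it had at least 2-fold more signal for Bcas1, Mbp, Ermn and Cnp, and at least 2-fold less for Cldn11. Of all 12214 genes tested, 5.11% were at least 2-fold higher in both treatments and 16.6% at least 2-fold lower, against 4 and 1 of the 9 myelin genes. The median over the 9 genes was 1.22 in FLX and 0.60 in VEH on the log2 scale, where the medians over all genes tested were 0.06 and -0.10. With the mean of all tested probe sets of a gene in place of the brightest, the members' medians were 1.71 and 1.26.

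Mbp encodes myelin basic protein, which binds the cytoplasmic faces of the membrane together in compact myelin. Its brightest probe set read 6046, 7364 and 27004 in FLX and 5620, 7728 and 23131 in VEH, here and below in the order of replicates 1, 2 and 3. Both replicate 3 arrays lay far above the other 4, while the FLX and VEH values overlapped. Of the 8 Mbp probe sets, 6 were at least 2-fold higher in replicate 3 in both treatments, with log2 differences of 2.02 to 2.81 in FLX and 1.81 to 2.48 in VEH. The other 2 moved less. Probe set 1425264_s_at read 659, 627 and 970 in FLX and 568, 709 and 733 in VEH, which gives log2 differences of 0.59 and 0.21. Probe set 1425263_a_at, with 85.4, 55.9 and 148 in FLX and 81.9, 83.3 and 103 in VEH, gave 1.10 and 0.32. The Mbp gene also makes golli transcripts from an upstream start, which are found in neurons and immune cells as well, and the annotation used here does not say which probe sets read them.

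Mobp encodes a small basic protein of compact myelin. The brightest of its 3 tested probe sets read 349, 369 and 1123 in FLX and 414, 446 and 649 in VEH. Replicate 3 was the highest array of each group, by log2 differences of 1.65 in FLX and 0.60 in VEH, so this probe set did not reach 2-fold in VEH. A second Mobp probe set, 1436263_at, read 218, 186 and 1087 in FLX and 206, 220 and 1045 in VEH, and differed by 2.43 and 2.29. The probe sets of 1 gene thus differed in size, though all 3 that were tested were higher in replicate 3 of both groups.

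Mog encodes an immunoglobulin-type protein of the outermost myelin surface. It read 85.2, 113 and 152 in FLX and 99.3, 123 and 127 in VEH. Replicate 3 was again the highest array in each group, but by only 0.63 and 0.20 on the log2 scale, and in VEH replicate 2 was nearly as high.

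Cnp encodes the cyclic nucleotide phosphodiesterase of non-compact myelin, an early marker of the lineage. It had the highest intensities of the members in every array, at 16147, 15884 and 37344 in FLX and 14642, 15854 and 40515 in VEH, although intensities of different probe sets are not comparable as transcript levels. The 4 arrays of replicates 1 and 2 spanned only 0.14 on the log2 scale, and replicate 3 exceeded them 2.33-fold in FLX and 2.66-fold in VEH. This probe set is of the x_at type, which can match other transcripts. The other 2 Cnp probe sets were also higher in replicate 3, by 1.94 and 1.97 in FLX and by 2.21 and 1.77 in VEH.

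Bcas1, a marker of oligodendrocytes that have begun to form myelin, had the largest difference among the members. Its tested probe set read 340, 299 and 2778 in FLX and 243, 318 and 1798 in VEH, which is 8.71-fold and 6.47-fold higher in replicate 3. The Bcas1 probe sets under the minimum differed far less. Their log2 differences in FLX and VEH were 0.30 and 0.41 (1453641_at) and 0.38 and 0.65 (1430758_x_at). Ermn encodes ermin, a cytoskeletal protein of mature oligodendrocytes. It read 1133, 1099 and 6042 in FLX and 875, 1428 and 2476 in VEH, or 5.42-fold and 2.22-fold higher. Its other probe set read 209, 115 and 1212 in FLX and 111, 189 and 768 in VEH. In all of these, each replicate 3 array was above all 4 arrays of replicates 1 and 2.

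Mal, which encodes a lipid raft protein of myelin and of epithelia, showed no common direction. Its brighter probe set read 436, 763 and 1065 in FLX and 712, 1190 and 698 in VEH, so that replicate 3 was the highest FLX array and the lowest VEH array. The log2 differences were 0.88 and -0.40. Replicates 1 and 2 alone spanned 1.45 on the log2 scale, the widest of the brightest probe sets, and the mean of both treatments went from 0.24 to -0.14 when the replicate 1 arrays were left out. The dimmer probe set read 78.2, 104 and 125 in FLX and 69.6, 122 and 185 in VEH, with differences of 0.47 and 1.01.

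Mag and Cldn11 were lower in replicate 3 in both treatments. Mag encodes the myelin-associated glycoprotein, an adhesion molecule of the membrane layer next to the axon. It read 146, 167 and 85.5 in FLX and 109, 168 and 52.5 in VEH, a log2 difference of -0.87 and -1.37. Both replicate 3 arrays lay below the other 4, the lowest of which was VEH replicate 1. Cldn11 encodes claudin 11, the tight junction protein of myelin, which is also made by barrier cells of the arachnoid. It read 2128, 4136 and 422 in FLX and 3530, 3838 and 622 in VEH, that is, 7.04-fold lower in replicate 3 in FLX and 5.92-fold lower in VEH.

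**Figure D1:**
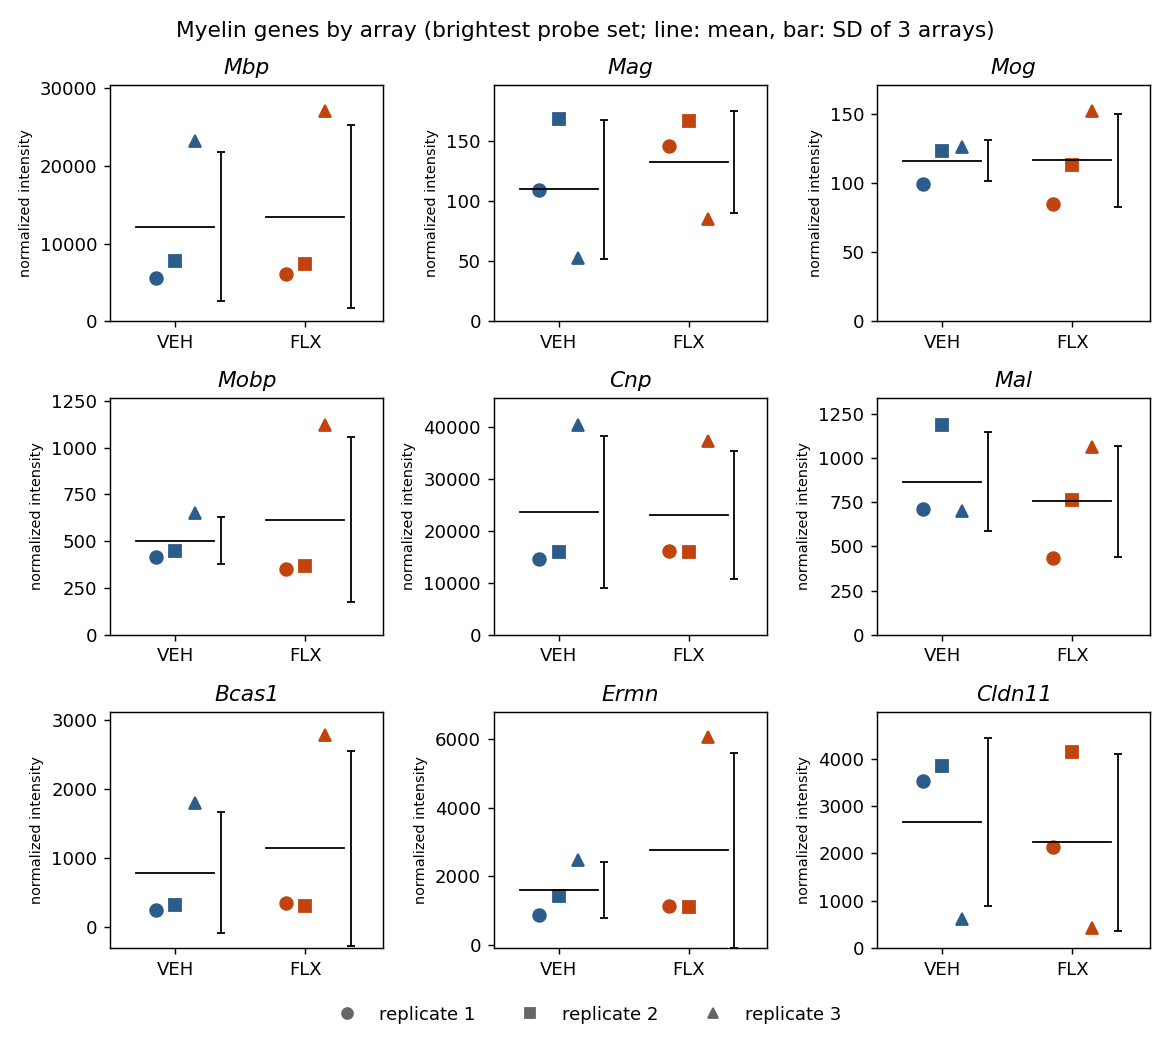
Normalized intensity (linear axis from 0 or below) of the 9 myelin genes in each of the 6 arrays, by their brightest probe set, with VEH in blue and FLX in orange. Circles, squares and triangles are replicates 1, 2 and 3, horizontal lines are group means and vertical bars the SD over 3 arrays. In both groups the triangles lie far above the rest for Mbp, Cnp and Bcas1 and below it for Mag and Cldn11. For Ermn they lie above the rest in both groups, but far above it only in FLX.

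**Figure D2:**
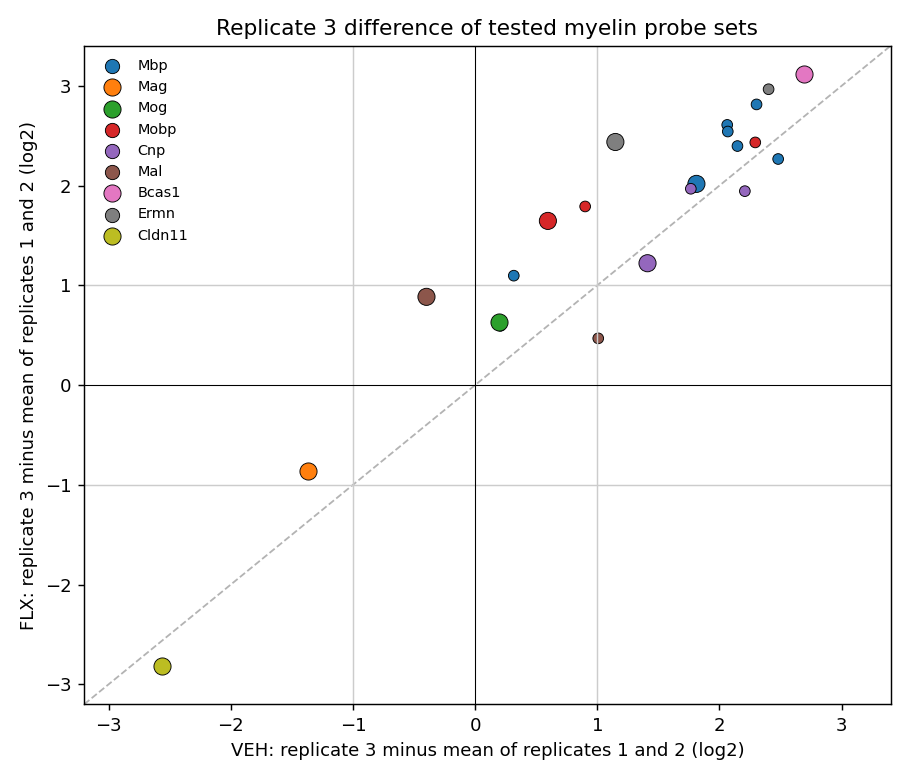
Log2 difference of replicate 3 from the mean of replicates 1 and 2 in VEH (horizontal axis) and FLX (vertical axis) for the 22 tested myelin probe sets, coloured by gene. Large points are the brightest probe set of each gene, grey lines mark 2-fold and the dashed line marks equal values. In the upper right, 13 probe sets are past 2-fold in both treatments, and Cldn11 alone is past it at the lower left.

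Counted by probe set, 13 of 22 were at least 2-fold higher in replicate 3 in both treatments, where 5.65% of all 22200 tested probe sets were, and 1 of 22 was at least 2-fold lower, where 14.7% were. A difference above 0 in both treatments was found for 6 of the 9 genes (40.5% of all genes tested) and below 0 for 2 (41.4%). The 2 treatments share no array in this comparison, but their replicate 3 arrays correlated at r = 0.973 with each other. The labels do not say what a replicate number stands for, so the treatments cannot be taken as independent here.

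Promoter sequences are shown for Cnp, Mobp and Ermn, which were higher in replicate 3, and for Cldn11, which was lower. Mobp was past 2-fold in VEH only by a probe set other than its brightest. The windows of Mag, Mog and Mal are not printed. Any link between SOX10 and the replicate 3 difference was not tested. The RefSeq table (build GRCm38.p6) held windows from 250 bases before to 50 bases after a start site for 7 of the 9 genes, Mag with 3 windows. Mbp and Bcas1 are named only. Capitals mark ACAAAG, or else the letters TCAAAG, or else the letters ACAATG, or else the letters TCAATG, on either strand, which are spellings of the core that SOX proteins bind. The windows are, in turn, chr11:100574689-100574988 (plus strand), chr9:120149492-120149791 (plus), chr2:58052815-58053114 (minus) and chr3:31149670-31149969 (plus), each written 5′ to 3′ along its gene.
Cnp: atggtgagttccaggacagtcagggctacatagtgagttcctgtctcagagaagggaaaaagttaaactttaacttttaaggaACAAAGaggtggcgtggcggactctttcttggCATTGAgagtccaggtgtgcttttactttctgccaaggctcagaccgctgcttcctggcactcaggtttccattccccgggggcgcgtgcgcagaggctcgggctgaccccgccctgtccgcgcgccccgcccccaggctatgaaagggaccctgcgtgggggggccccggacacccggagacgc
Mobp: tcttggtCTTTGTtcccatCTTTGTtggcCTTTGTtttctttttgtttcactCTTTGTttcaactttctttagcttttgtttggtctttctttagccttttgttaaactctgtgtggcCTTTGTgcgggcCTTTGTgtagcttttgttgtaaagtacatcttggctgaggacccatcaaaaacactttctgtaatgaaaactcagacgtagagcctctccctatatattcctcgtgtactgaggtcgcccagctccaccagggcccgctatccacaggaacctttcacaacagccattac
Ermn: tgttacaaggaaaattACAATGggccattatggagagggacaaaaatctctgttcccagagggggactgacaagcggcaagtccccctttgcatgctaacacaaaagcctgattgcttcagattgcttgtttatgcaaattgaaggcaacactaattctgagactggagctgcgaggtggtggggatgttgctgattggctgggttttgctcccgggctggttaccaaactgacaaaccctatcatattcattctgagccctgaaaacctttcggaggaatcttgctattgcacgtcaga
Cldn11: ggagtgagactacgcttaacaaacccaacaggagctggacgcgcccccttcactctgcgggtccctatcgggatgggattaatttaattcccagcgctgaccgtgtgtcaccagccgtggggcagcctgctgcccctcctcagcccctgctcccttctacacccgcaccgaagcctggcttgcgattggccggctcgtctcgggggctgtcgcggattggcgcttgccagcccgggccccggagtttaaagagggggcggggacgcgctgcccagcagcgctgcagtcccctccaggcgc
The Mobp window held 6 matches, the Cnp window 2, the Ermn window 1 and the Cldn11 window 0. With Mag, Mog and Mal at 1 match in each window, 8 of the 9 windows held at least 1, as did 44.0% of all 32851 windows in the table. By gene, 6 of 7 had a match in at least 1 window, as did 47.8% of all 27025 genes. The Mag windows chr7:30914814-30915113 and chr7:30914873-30915172 (minus) overlap and share the same match. A match describes letters and not a bound site. Both a gene that was higher (Ermn) and one that was lower (Mag) in replicate 3 had at least 1.

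Other genes of the lineage were described from 5 lists with 63 genes, of which 48 were tested. Of these, 45 also passed the minimum without the replicate 3 arrays. In replicate 3, 12 of the 48 were at least 2-fold higher in both treatments and 10 at least 2-fold lower (5.11% and 16.6% of all genes). The 12 include Myrf and Nkx6-2, which passed the minimum only through replicate 3, so that their higher signal there was fixed by the filter. Enpp6, a precursor gene not among the 12, also passed only through replicate 3. Medians over the 48, with these genes included, were 0.26 in FLX and 0.32 in VEH. The lists differed among themselves.

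Of the 6 lineage transcription factors that passed the minimum without replicate 3, 4 were at least 2-fold higher in replicate 3 and 1 was lower (5.11% and 16.6% of all genes), with medians of 1.86 (FLX) and 1.52 (VEH). Myrf and Nkx6-2 passed it only through replicate 3, so that their higher signal there was fixed by the filter. With them the counts were 6 and 1 of 8 and the medians 1.43 and 1.57. Sox10 read 198, 218 and 1193 in FLX and 171, 212 and 929 in VEH. Olig2 read 114, 108 and 731 in FLX and 97.0, 134 and 432 in VEH. For both genes the replicate 3 arrays lay above all the others. Tcf7l2, a Wnt effector used by newly formed oligodendrocytes and by other cells, was lower, at 201, 242 and 103 in FLX and 301, 242 and 116 in VEH. Zfp536, a zinc finger repressor, differed by 0.38 and 0.91 and did not reach 2-fold.

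Among other genes enriched in mature oligodendrocytes, 4 of 16 were at least 2-fold higher and 2 lower (5.11% and 16.6% of all genes). Their medians were 0.56 and 0.64. Ppp1r14a, a phosphatase inhibitor subunit, differed by 2.68 and 2.91, and Car2, a carbonic anhydrase, by 2.18 and 2.02 (FLX and VEH). Apod, the lipid carrier apolipoprotein D, which fibroblasts also make, read 13485, 22120 and 1290 in FLX and 17889, 19903 and 2151 in VEH, a difference of -3.74 and -3.13.

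Myelin membrane and junction genes outside the members were divided, with 1 of 9 at least 2-fold higher and 2 lower (5.11% and 16.6% of all genes). Their medians were -0.29 and -0.55. Opalin, a transmembrane protein of mature oligodendrocytes, was higher by 1.50 and 1.55, and Tspan2, a tetraspanin of the lineage, by 1.11 and 0.50. Cd9, a tetraspanin of myelin and of many other cells, was lower, at -2.66 and -3.34. Of 7 myelin lipid enzymes, 1 was at least 2-fold higher and 2 lower (5.11% and 16.6% of all genes). Fa2h, the fatty acid 2-hydroxylase, differed by 1.50 and 1.40, Gal3st1, the sulfatide-forming sulfotransferase, by 0.82 and 0.53, and Cers2, a ceramide synthase of wide expression, by -3.13 and -2.78.

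Of 7 precursor genes that passed the minimum without replicate 3, 0 were at least 2-fold higher there and 3 were lower. The shares of all genes were 5.11% and 16.6%. The medians of the 7 were -0.54 (FLX) and 0.10 (VEH). Enpp6 passed the minimum only through replicate 3. With it the counts were 0 and 3 of 8 and the medians -0.27 and 0.25. Gpr17, a receptor of committed precursors, differed by 0.64 and 0.40 and Lhfpl3 by 0.74 and 0.10. Bmp4, a growth factor made by committed precursors and by meningeal cells, read 2565, 3684 and 173 in FLX and 4250, 4238 and 290 in VEH.

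Leptomeningeal and fibroblast markers, the cells of the brain's covering membranes, were at least 2-fold lower in replicate 3 in both treatments in 9 of 10 genes (16.6% of all genes) and below 0 in 10 of 10, with medians of -3.66 and -3.56. Their summed intensity was 33792 to 57790 over replicates 1 and 2 of both groups, and 2558 and 5245 in FLX and VEH replicate 3. Slc6a13, a transporter of these membranes, read 1744, 3240 and 99.8 in FLX and 2600, 3050 and 165 in VEH. The part of the leptomeningeal markers in the values of Cldn11, Apod, Cd9 and Bmp4 was not tested. Microglia markers had medians of -0.78 and -1.79, with 0 of 10 genes at least 2-fold higher and 3 lower, beside 5.11% and 16.6% of all genes, and summed intensities of 3891 to 12264. Astrocyte markers had 0.36 and -0.48, with 1 of 10 higher and 3 lower. Endothelial markers, 4 of 10 of which were tested, had -0.47 and -1.67, with 0 higher and 1 lower. Neuron markers had 0.52 and 0.55, with 1 of 9 higher and 1 lower. Layer 5 markers had 0.80 and 0.94, with 1 of 5 higher and 0 lower. The shares of all genes to set beside each of these counts are again 5.11% higher and 16.6% lower. Of 5 Schwann cell genes, which would mark peripheral myelin, 0 were tested, and the 3 with a probe set of their own read at most 44.0 (Pmp2), 13.8 (Ncmap) and 18.9 (Dhh) in any array. The summed intensity of the 9 myelin genes was 26244 to 31094 over replicates 1 and 2, and 76016 and 70068 in FLX and VEH replicate 3. Most of it came from Cnp (37344 and 40515 in FLX and VEH replicate 3) and Mbp (27004 and 23131). The sum thus does not show the fall of Cldn11 and Mag.

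**Figure D3:**
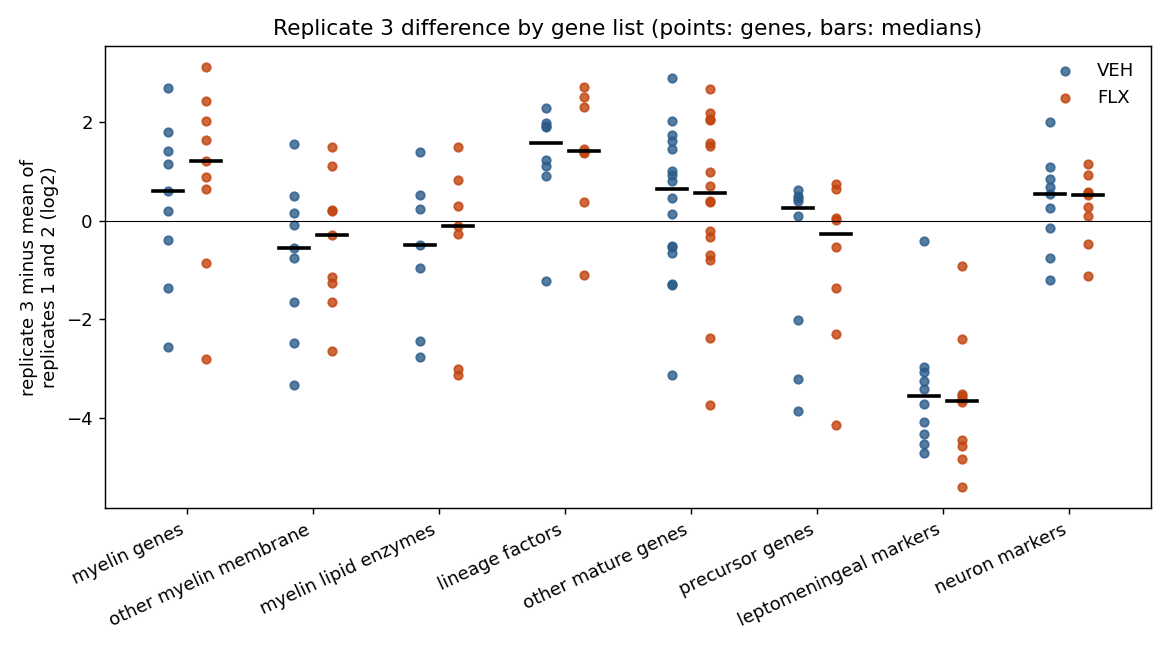
Log2 difference of replicate 3 from the mean of replicates 1 and 2 (vertical axis) for the tested genes of 8 lists, with VEH in blue and FLX in orange; points are genes and black bars are list medians. Lineage factors center near 1.5 and leptomeningeal markers near -3.6, while the other myelin lists spread on both sides of 0. The lineage factors shown include Myrf and Nkx6-2, whose high position was fixed by the filter. The precursor genes shown include Enpp6, which also passed the minimum only through replicate 3.

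By likeness over the 6 arrays, the 10 genes closest to the mean profile of the 9 members were Tbc1d5, Akap8l, Arhgap12, Uhrf2, Pdzph1, Sfpq, Tspan2, Arid1a, Zc3h13 and Otof. Pearson's r was 0.959 to 0.981 among 4348 genes with an SD of at least 0.5 on the log2 scale. With 2 of 6 arrays standing apart, r mainly reads that split. The mean profile joins members that were higher in replicate 3 with Cldn11 and Mag, which were lower. It stood at 0.65 in FLX and 0.22 in VEH replicate 3 on the centred log2 scale. Likeness to it is thus not likeness to single members such as Mbp or Bcas1. Pdzph1 and Otof passed the minimum only through replicate 3, so their high signal there was fixed by the filter. Of the 10, Tspan2 was the only gene that stands in one of the oligodendrocyte lists. Uhrf2, a nuclear ubiquitin ligase, read 232, 306 and 1186 in FLX and 202, 325 and 643 in VEH.

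Fluoxetine treatment gave no detected difference in the myelin genes. By limma with Benjamini-Hochberg adjustment over all 22200 probe sets, 0 of the 22 myelin probe sets passed a threshold of 0.05, where 0% of all probe sets did. At an unadjusted p under 0.05, 0 of 22 passed against 0.374% of all, and with the replicate number as a block 0 of 22 against 7.95%. FLX and VEH arrays overlapped for all 22, while the groups lay apart for 2.55% of all probe sets with FLX above and 1.79% with FLX below. The median log2 difference over the 9 genes, FLX minus VEH, was 0.09, with 6 genes above and 3 below 0, and over all genes tested it was 0.05.

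Among single members the difference was farthest from 0 for Ermn, with means of 2758 ± 2844 in FLX and 1593 ± 814 in VEH (SD, n = 3 each). Its log2 difference was 0.43 (95% interval -1.44 to 2.29, limma adjusted p = 1.000). Cldn11 had 2228 ± 1859 in FLX and 2663 ± 1775 in VEH, and a difference of -0.39 (-2.99 to 2.20). Mag had 133 ± 42.2 and 110.0 ± 57.9, a difference of 0.37 (-0.83 to 1.57) and the smallest unadjusted p of the members by limma, 0.482. With the replicate number as a block the intervals were narrower, at -0.26 to 1.11 for Ermn, -0.87 to 0.08 for Cldn11 and -0.07 to 0.81 for Mag. The unpaired intervals of Ermn and Cldn11 include changes of more than 2-fold in either direction, and the blocked interval of Ermn includes a rise of 2-fold, so the arrays do not show that treatment left these genes alike.

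The remaining 6 genes lay between -0.25 and 0.34. Bcas1 had 1139 ± 1420 in FLX and 786 ± 877 in VEH, a difference of 0.34 (-2.41 to 3.09). Mbp had 13471 ± 11738 and 12160 ± 9559, a difference of 0.09 (-1.77 to 1.94). Mobp had 614 ± 441 and 503 ± 128, also at 0.09 (-1.13 to 1.31). Cnp, with 23125 ± 12315 and 23670 ± 14601, was at 0.01 (-1.29 to 1.30), Mog at -0.03 (-0.69 to 0.64) and Mal at -0.25 (-1.23 to 0.74). With the block, the lower bounds of these 6 genes ran from -0.88 (Mal) to -0.11 (Bcas1) and the upper bounds from 0.38 (Mog) to 0.79 (Bcas1). The SD was above the mean for Ermn in FLX and for Bcas1 in both groups, and Mog had the narrowest unpaired interval.

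Arrays of equal replicate number were also set against each other. Members were higher in FLX in 5 of 9 genes in pair 1, in 2 of 9 in pair 2 and in 7 of 9 in pair 3, with medians of 0.11, -0.09 and 0.61. Over all genes tested the medians were 0.01, -0.01 and 0.15. In pair 3 Ermn differed by 1.29, Mobp by 0.79, Mag by 0.70, Bcas1 by 0.63 and Mal by 0.61, whereas Cnp was at -0.12 and Cldn11 at -0.56. None of the 9 genes (0) was higher in all 3 pairs, as 20.2% of all genes were, and 0 were lower in all 3, as 13.6% were. Mobp and Mal were lower in FLX in pairs 1 and 2, by -0.25 and -0.27 and by -0.71 and -0.64, and higher in pair 3. Without both replicate 3 arrays Mobp was at -0.26 and Ermn at -0.00, in place of 0.09 and 0.43.

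**Figure D4:**
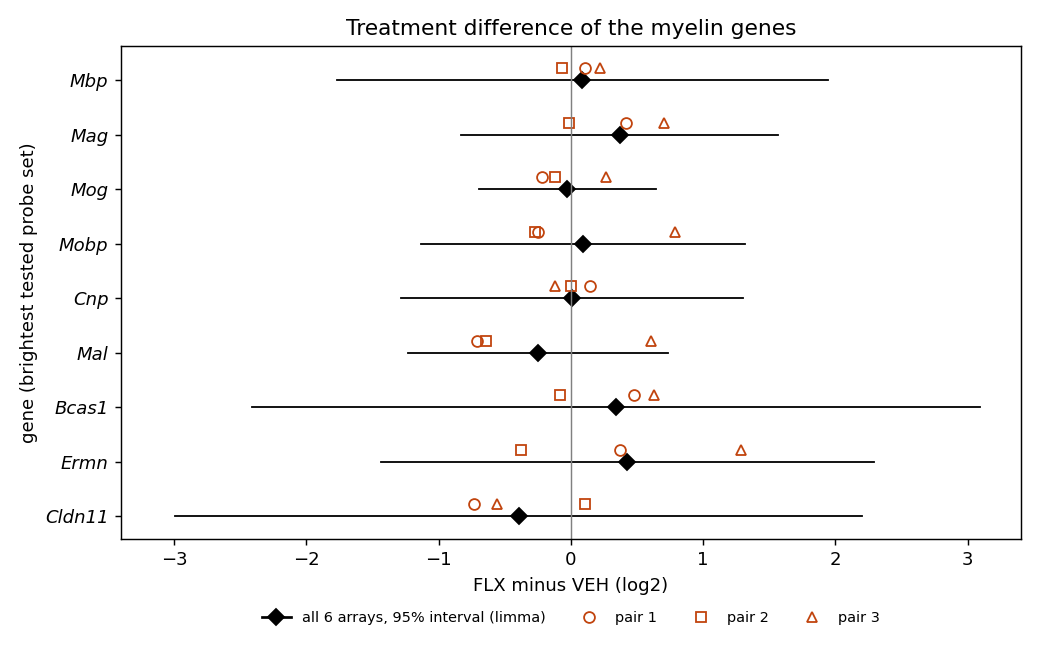
Log2 difference of FLX from VEH (horizontal axis) for the 9 myelin genes by their brightest probe set. Black diamonds with lines are the estimates from all 6 arrays with the 95% interval from limma, and open circles, squares and triangles are the differences within replicate numbers 1, 2 and 3. Every interval spans 0, and the pairs fall on both sides of 0 for each gene.

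In the other oligodendrocyte lists, 0 of 48 genes passed by limma and 0 at an unadjusted p under 0.05 (0.303% of all genes). With the replicate block 0 of 48 passed after adjustment, and 4 (Zfp536, Bmp4, Elovl1 and Cspg5) had an unadjusted p under 0.05, where 7.6% of all genes did. Without the block the median difference was 0.02, with 27 above and 21 below 0. By list the medians were 0.10 for membrane and junction genes, 0.03 for lipid enzymes, -0.18 for lineage factors, -0.00 for other mature genes and 0.04 for precursor genes. Zfp536 was the 1 gene of 48 whose groups did not overlap, at 213, 325 and 342 in FLX and 371, 362 and 689 in VEH (FLX below VEH for 1.65% of all genes). Its log2 difference was -0.66 (SE 0.35, unadjusted p = 0.106 by limma), and with the block the unadjusted p was 0.0138 and the adjusted p 0.623. Elsewhere the members with the smallest unadjusted p were Nfasc at 0.34 and Tspan2 at 0.30, Elovl7 at 0.18 and Elovl1 at -0.59, Tcf7l2 at -0.25, Cdc42ep1 at -0.33 and Ndrg1 at -0.38, and Gpr17 at 0.31 and Cspg5 at 0.53.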

How the data were processed

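The deposited table holds 1 column per array of intensities per probe set, not logged, which, per the submitters' processing notes, the authors made with GCRMA, with version and settings not given in the sources used here. Per the labels, 15 ng of RNA was amplified in 2 cycles and labelled with biotin. GCRMA corrects background by probe sequence and applies quantile normalization, so a shift shared by all transcripts cannot be seen. Of 45101 probe sets, 64 controls were left out, 34945 have 1 symbol in the platform annotation, 932 several and 9160 none. The list of probe sets that the submitters recommend was not used here.

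The treatment comparison used limma 3.58.1 (R 4.3.3) on log2 intensities without a pseudocount, for probe sets with a mean of 50 or more in a group (22200 probe sets, 12214 genes), two-sided. The code was tested on simulated data. Figures used matplotlib 3.10.9. Members, lists, tests and naming rules were chosen with earlier results of these data known. Named list genes are the 2 with the smallest p, the 2 with the largest and the 1 with the smallest replicate 3 difference of each oligodendrocyte list. Pmp2, Ncmap, Dhh and Slc6a13 were named after their values were seen. Myrf, Nkx6-2 and Enpp6 are named because they passed the minimum only through replicate 3. Deviations from the group means correlated at r = 0.704, 0.843 and 0.873 between arrays of equal replicate number, above the limit of 0.1 for pairing, but VEH replicate 1 and FLX replicate 2 reached 0.759, so the pairing rests mainly on replicate 3. Nothing beyond the word biological says what separates replicates. The p-values set the group difference against the spread between these samples. Without the block that spread includes the replicate 3 difference. For Mbp the SE was 0.76 without the block and 0.16 with it.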

Additional observations from a re-analysis of the deposited data

How the results depend on the processing

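In every setting tried, 0 myelin probe sets and 0 of all probe sets passed in FLX against VEH. These were the replicate block (median of the members 0.09), replicate 3 as a 2-level factor, both replicate 3 arrays left out, each array left out, no filter, a minimum of 100, a pseudocount of 16, median centring, a second quantile normalization, an intensity trend and each gene's mean over its probe sets. The block changed no call, and the lowest adjusted p of any member in any setting was 0.592. The median of the members ran from -0.40 without FLX replicate 3 to 0.29 without VEH replicate 3, where the replicate 3 array of the other group is unmatched. With 1 array left out, Mbp ran from -0.59 to 0.69, Mag from -0.087 to 0.75, Mog from -0.24 to 0.18, Mobp from -0.46 to 0.38, Cnp from -0.40 to 0.48, Mal from -0.54 to 0.10, Bcas1 from -0.70 to 1.24, Ermn from -0.38 to 0.84 and Cldn11 from -1.25 to 0.54. The sign also turned without both replicate 3 arrays for Mobp (-0.26) and Ermn (-0.0023), and with median centring for Cnp (-0.015). Both scalings moved the median of all probe sets by -0.02 and -0.03. The replicate 3 median of the members was 1.23 to 1.29 in FLX and 0.54 to 0.65 in VEH without replicate 1 or 2. It moved to 0.82 in VEH with median centring, and to 1.71 in FLX and 1.26 in VEH with the mean of all probe sets. Mal was -0.14 without replicate 1 and 0.63 without replicate 2. With 6 arrays, of which 2 stand apart, small treatment differences are beyond reach. Without the block, the intervals of Bcas1, Mbp, Mobp, Cnp, Ermn and Cldn11 also include changes of more than 2-fold in either direction. Mag in VEH replicate 3, at 52.5, was near the minimum of 50.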
